A study of Mus musculus with 7 samples.

Results

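The 10 genes described here are *Fos*, *Fosb*, *Jun*, *Junb*, *Egr1*, *Egr3*, *Nr4a1*, *Arc*, *Ier2* and *Atf3*. They were chosen by name as immediate early genes, joined by the injury factor *Atf3*, and are 10 of the 21965 genes in the count table. Most belong to the AP-1, EGR and NR4A families, while *Arc* and *Ier2* belong to none of these. All 10 matched 1 row each and passed the filter on low counts, which left 15743 genes. RNA came from a 5 mm piece of spinal cord around a moderate contusion at T9 (50 kdyn force), taken 3 days after injury (dpi 3) at zeitgeber time 3 to 5 h. The injured mice were 8 to 10 weeks old, and none of the 7 libraries is from uninjured cord. Of these, 3 libraries are labelled Bmal1-/- (homozygous for the germline *Arntltm1Bra* allele on C57BL/6, given as the J substrain in the methods, from 2 females and 1 male) and 4 are WT C57BL/6 (2 females and 2 males). Of the 4 WT mice, 1 was a littermate of Bmal1-/- mice. By the methods, Bmal1-/- mice were bred from heterozygous parents, and WT controls that were not littermates were ordered from a supplier. Genotype and origin of the mice thus mostly go together, and their parts in a difference cannot be told apart here. The allele is present in every cell type, so nothing in the design ties a difference to one of them.

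Immediate early genes are switched on within minutes of a stimulus, without new protein synthesis, when kinases of the ERK, JNK and p38 pathways activate factors such as SRF and CREB. Their proteins are mostly transcription factors, and their RNAs are short-lived. FOS and JUN family proteins pair through leucine zippers to form AP-1, and ATF3 pairs with JUN proteins. EGR proteins bind DNA through zinc fingers, and NR4A1 is an orphan nuclear receptor. In nervous tissue they are known as markers of neuronal activity, and *Jun* and *Atf3* as markers of axonal injury. BMAL1, encoded by *Arntl*, is the clock factor that binds E-box sequences together with CLOCK.

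To show the stretches in question, the 130 bases before the RefSeq start (GRCm38.p6) are printed for *Fos* (chr12:85473760-85473889, plus strand), *Jun* (chr4:95052223-95052352, minus strand), *Junb* (chr8:84978749-84978878, minus strand) and *Atf3* (chr1:191183334-191183463, minus strand). These were picked because *Junb* differed most in level among the AP-1 members and *Jun* varied together with *Atf3*. Capitals mark TGACG, the core of the cyclic AMP response element that CREB and ATF proteins bind, or its complement CGTCA, and the *Jun* window holds neither. The RefSeq starts of *Atf3* and of *Nr4a1*, which is searched below, lie well inside the gene spans of the other annotation used here.
Fos: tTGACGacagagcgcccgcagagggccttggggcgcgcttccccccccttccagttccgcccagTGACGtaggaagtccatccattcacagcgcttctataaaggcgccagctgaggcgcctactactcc
Jun: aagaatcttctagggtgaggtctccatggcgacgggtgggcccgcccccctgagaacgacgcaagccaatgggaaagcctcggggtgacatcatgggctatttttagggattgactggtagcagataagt
Junb: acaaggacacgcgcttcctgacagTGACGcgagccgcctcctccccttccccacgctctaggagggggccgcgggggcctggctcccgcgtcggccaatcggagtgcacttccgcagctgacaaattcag
Atf3: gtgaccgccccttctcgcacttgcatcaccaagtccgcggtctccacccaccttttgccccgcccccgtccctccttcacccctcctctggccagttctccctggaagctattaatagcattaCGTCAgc

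RefSeq promoters were used for 6 of the 10 genes, namely these 4, *Fosb* and *Nr4a1*. In the 250 bases before the start, searched on both strands, the core TGACG was found in 5 of the 6, all but *Jun*, and in 17.8% of all 32851 promoters. The full element TGACGTCA, which holds this core, was in none of the 6 and in 1.55% of all. The *Jun* window printed above holds TGACATCA, which differs from the full element by a letter, and such near matches were not searched for. The E-box CACGTG was also in none of the 6, and in 6.02% of all promoters. The AP-1 site TGAGTCA (4.46% of all), the EGR site GCGTGGGCG (0.536%) and the CArG box of SRF (1.47%) were not found in them either. The TATA box, searched as TATAAA, was in 1 of the 6 (*Fos*) and in 12.4% of all promoters. These matches say only which letters stand in these windows.

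The libraries held 38529644 to 44096737 counts. Levels are given as CPM, counts scaled to a common library total with TMM factors. Markers of neurons, astrocytes, oligodendrocytes, microglia and macrophages were all counted, as the labelled tissue would have. The count of *Arntl* itself was 23.6 ± 0.94 CPM (SD, n = 3) in libraries with the Bmal1-/- label and 13.8 ± 1.5 (SD, n = 4) in WT, so it was higher where the label says knockout. The allele removes part of the gene, which counts over the whole gene cannot resolve, and an antisense gene overlaps it, so this count is no check of the label. Directions are given for the labels as they stand. Of the WT libraries, replicate 3 stood apart. Its summed macrophage markers were 12620 CPM against 5317 to 8118 in the other WT libraries, and its neuron markers 2327 against 4164 to 5686. Bmal1-/- replicate 2 had summed fibroblast markers of 2213 CPM, against 376 and 298 in Bmal1-/- replicates 1 and 3 and 1102 to 1817 in WT. Astrocyte markers summed to 14099 to 16779 CPM under the Bmal1-/- label and 9522 to 13606.5 in WT, and pericyte markers to 241 to 315 and 344 to 407. Skeletal muscle markers summed to 3.33 to 4.24 CPM in libraries with the Bmal1-/- label and 35.6 to 54.2 in WT, and red cell markers to 27.1 to 62.7 and 153 to 466.

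None of the 10 genes differed between the genotypes at dpi 3 at an adjusted p under 0.05 (quasi-likelihood test of edgeR, adjusted over all genes tested by Benjamini-Hochberg), where 1.57% of all genes did. At an unadjusted p under 0.05 there were 2, *Junb* and *Ier2*, both lower, where 20.9% of all genes were past that limit. This count was 0 without Bmal1-/- replicate 2, without Bmal1-/- replicate 3 or with sex as a covariate, 1 without WT replicate 1 or 4, and 3 without WT replicate 3. DESeq2 called none of the 10 either, and 9.13% of all genes. Over the members, the median log2 fold change was 0.0039, beside -0.0057 for all genes tested. Their estimates were above 0 for 6 and below 0 for 4. Only *Ier2* had genotypes that did not overlap, lower in libraries with the Bmal1-/- label, while 13.5% of all genes were lower without overlap. The 95% interval of the log2 fold change lay within 0.5 on either side of 0 for *Fos*, *Jun*, *Egr1*, *Nr4a1* and *Arc*, and within 1 for all but *Ier2*. In whole tissue, fewer cells of a type and less RNA per cell cannot be told apart.

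**Figure D1:**
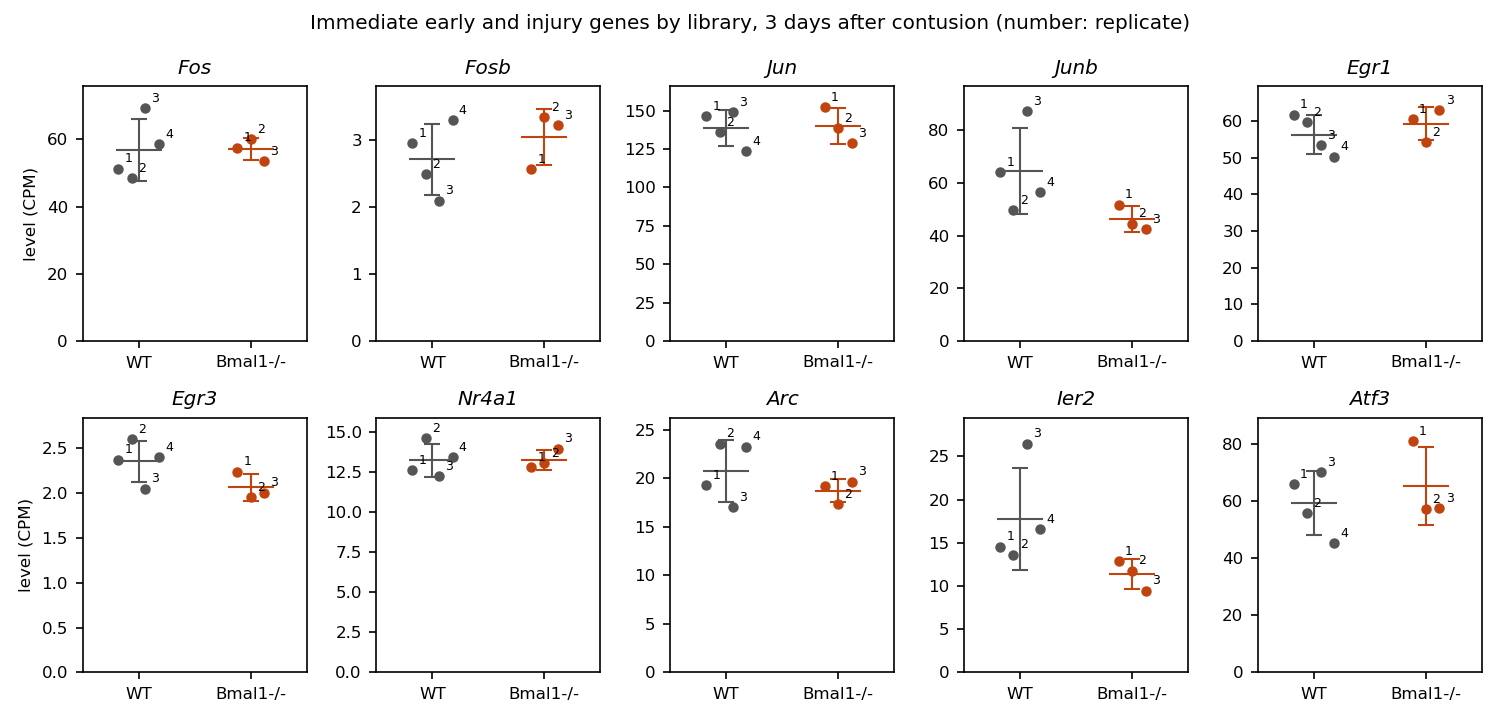
Level in CPM (y axis, from 0) of each of the 10 genes in the libraries labelled WT (4, grey) and Bmal1-/- (3, orange); each point is 1 library with its replicate number, and the bar with whiskers is the mean ± SD. The points of 9 genes overlap between genotypes, and for *Ier2* the highest Bmal1-/- library (12.9) lies under the lowest WT library (13.6).

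*Fos* encodes the founding partner of JUN in AP-1. Its level was 57.5, 60.1 and 53.5 CPM in Bmal1-/- replicates 1 to 3. In WT replicates 1 to 4 it was 51.3, 48.6, 69.2 and 58.6 CPM. The Bmal1-/- values lay inside the WT range, and the log2 fold change was 0.0030 (SE, its standard error, 0.12, 95% interval -0.29 to 0.29). As a fold, that interval runs from 0.819 to 1.23.

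*Fosb* encodes another FOS family protein, and was the scarcest member per length. It had 2.57, 3.34 and 3.22 CPM in libraries with the Bmal1-/- label and 2.96, 2.49, 2.10 and 3.30 in WT, which rests on 84 to 144 counts per library. WT replicate 3 was the lowest and Bmal1-/- replicate 2 the highest. Its log2 fold change of 0.17 (SE 0.19) had an interval from -0.29 to 0.62.

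*Jun* encodes the JUN subunit that JNK phosphorylates, and was the most abundant member. Levels were 152, 139 and 129 CPM in libraries with the Bmal1-/- label, against 147, 136, 149 and 123 CPM in WT. The highest and the next to lowest library were both Bmal1-/-, so the genotypes were mixed through the range. This gave a log2 fold change of 0.01 (SE 0.09, 95% interval -0.20 to 0.22). An antisense gene, *Junos*, overlaps *Jun*.

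*Junb* encodes a JUN protein that can restrain JUN. It was at 51.8, 44.6 and 42.6 CPM in libraries with the Bmal1-/- label. The WT libraries had 64.3, 49.7, 87.4 and 56.6 CPM. Only WT replicate 2 and Bmal1-/- replicate 1 kept the groups from being apart. The means were 46.3 ± 4.83 (SD, n = 3) and 64.5 ± 16.4 CPM (SD, n = 4), which is -0.48 on the log2 fold change scale (SE 0.19, adjusted p = 0.219, edgeR). The gene overlaps *Prdx2* on the opposite strand.

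*Ier2*, a nuclear immediate early protein, had 12.9, 11.8 and 9.46 CPM in libraries with the Bmal1-/- label. Its WT levels were 14.6, 13.6, 26.5 and 16.5 CPM. With -0.65 (SE 0.25, adjusted p = 0.210, edgeR) it had the log2 fold change largest in size of the 10, and its interval ran from -1.23 to -0.064. WT replicate 3 held the highest value of both *Ier2* and *Junb*. Without it the log2 fold changes were -0.39 for *Ier2* and -0.30 for *Junb*, still not past the threshold. That library also had the highest summed markers of macrophages, of neutrophils (128 CPM, against 38 to 79.4 in the other WT libraries) and of endothelial cells (729, against 444 to 500). Their part in the *Junb* and *Ier2* levels was not tested.

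*Egr1*, the best known EGR factor, was at 60.4, 54.3 and 63.0 CPM in libraries with the Bmal1-/- label and at 61.8, 59.6, 53.5 and 50.3 CPM in WT. The genotypes overlapped over most of this range, and the log2 fold change was 0.07 (95% interval -0.14 to 0.29). *Egr3*, which EGR1 and neuronal activity induce, was about as scarce as *Fosb*, with 2.24, 1.95 and 2.00 CPM against 2.37, 2.60, 2.05 and 2.40. Only WT replicate 3 was inside the Bmal1-/- range. Its log2 fold change was -0.19 (SE 0.14, adjusted p = 0.428, edgeR).

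*Nr4a1* was the steadiest member. It had 12.8, 13 and 14.0 CPM in libraries with the Bmal1-/- label and 12.6, 14.6, 12.2 and 13.4 in WT. The coefficient of variation over all 7 libraries was 6.23%, beside a median of 13.6% over all genes tested. Its log2 fold change of 0.0048 had an interval from -0.21 to 0.21, which is 0.867 to 1.16 as a fold. *Arc*, a neuronal protein that acts at synapses and is no transcription factor, had 19.2, 17.4 and 19.7 CPM against 19.3, 23.6, 17.0 and 23.3. WT libraries were both the highest and the lowest. The log2 fold change was -0.15 (SE 0.13, adjusted p = 0.486, edgeR). The summed neuron markers were 5754 to 6900 CPM in libraries with the Bmal1-/- label and 2327 to 5686 in WT, and their part in the *Arc* values was not tested.

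*Atf3*, the stress and axonal injury factor, had 80.9, 57.1 and 57.4 CPM in libraries with the Bmal1-/- label. WT levels were 65.8, 55.8, 70.2 and 45.2 CPM. The highest library was Bmal1-/- replicate 1 and the lowest WT replicate 4, with the others between them in mixed order. Between genotypes the log2 fold change was 0.14 (SE 0.18, 95% interval -0.29 to 0.57), and without Bmal1-/- replicate 1 it was -0.049.

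**Figure D2:**
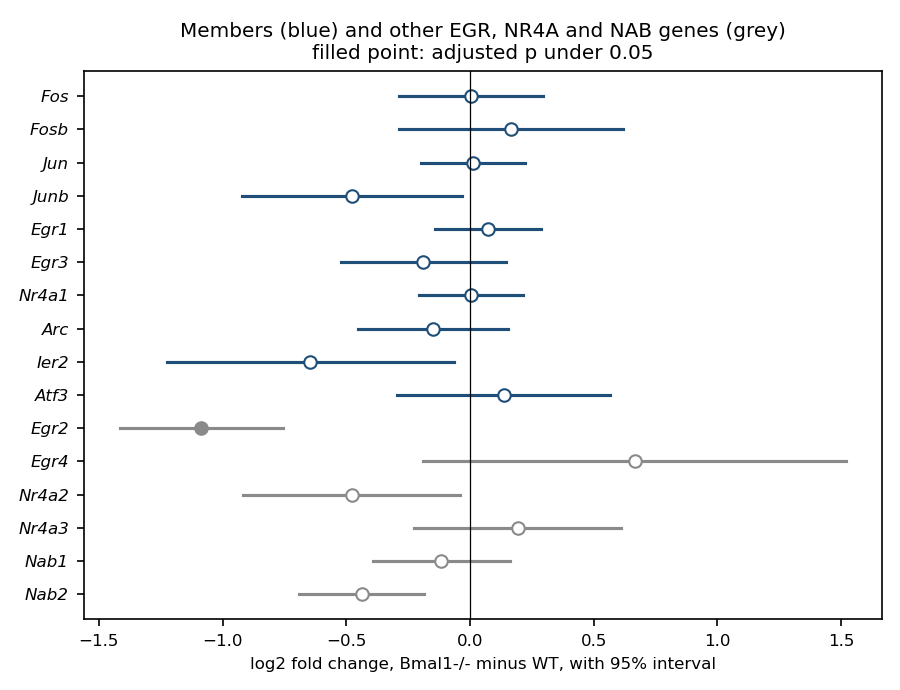
Log2 fold change (x axis, Bmal1-/- minus WT) with its 95% interval for the 10 members (blue) and for *Egr2*, *Egr4*, *Nr4a2*, *Nr4a3*, *Nab1* and *Nab2* (grey); a filled point has an adjusted p under 0.05. Only *Egr2* (-1.09) is filled, and the members' points run from -0.65 for *Ier2* to 0.17 for *Fosb*.

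At dpi 3 the AP-1 genes *Jun*, *Junb* and *Fos* and the injury gene *Atf3* gave the most RNA per length of the members, and *Fosb* and *Egr3* the least. Per kilobase of exon, the WT order of the members was led by *Jun*, at 43.5 ± 3.65 CPM per kb (SD, n = 4). *Junb* (28.0 ± 7.12), *Atf3* (27.5 ± 5.16) and *Fos* (24.2 ± 3.92) followed, with overlapping WT ranges from each to the next. *Egr1* (12.6 ± 1.18) and *Ier2* (11.7 ± 3.88) formed the next step and also overlapped. *Arc* had 6.80 ± 1.04 and *Nr4a1* 3.77 ± 0.30 CPM per kb, each apart from its neighbours in WT. The lowest were *Egr3* (0.534 ± 0.052) and *Fosb* (0.434 ± 0.085), whose ranges overlapped. In libraries with the Bmal1-/- label the order by mean was the same except that *Junb* (20.1 ± 2.10, n = 3) stood below *Atf3* (30.2 ± 6.33) and *Fos* (24.3 ± 1.40), and *Fosb* above *Egr3*.

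The genes lie apart on the genome (GRCm38, GENCODE M21), with an exception. *Ier2* (ENSMUSG00000053560, chr8:84661331-84662852) and *Junb* (ENSMUSG00000052837, chr8:84974484-84978718) are in the same region of chromosome 8, their left ends 313 kb apart. *Arc* (ENSMUSG00000022602, chr15:74669083-74672570) and *Nr4a1* (ENSMUSG00000023034, chr15:101254269-101274795) share chromosome 15 at 26.6 Mb. *Fosb* (ENSMUSG00000003545, chr7:19302696-19310051) is on the chromosome of *Arntl*, 93.9 Mb from it. The others are *Fos* (ENSMUSG00000021250, chr12:85473890-85477273), *Jun* (ENSMUSG00000052684, chr4:95049034-95052222), *Egr3* (ENSMUSG00000033730, chr14:70077203-70082614), *Atf3* (ENSMUSG00000026628, chr1:191170296-191218039) and *Egr1* (ENSMUSG00000038418).

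The members did not vary as 1 block from mouse to mouse. Over the 7 libraries, Pearson's r between log2 CPM values was above 0 for 21 of the 45 pairs and below 0 for 24, from -0.69 for *Fos* with *Nr4a1* to 0.95 for *Junb* with *Ier2*. An r of at least 0.8 was found for 3 pairs, a limit chosen after the values were seen. These were *Junb* with *Ier2* (Spearman's rho 0.93), *Jun* with *Atf3* (r = 0.94, rho 0.89) and *Egr3* with *Arc* (r = 0.82, rho 0.71). Without WT replicate 3 the r values were 0.83, 0.93 and 0.81, in that order. Leaving out the 2 libraries farthest from the median of the gene named first gave 0.94, 0.86 and 0.62. These are descriptions over 7 libraries that share their depth and tissue makeup across genes, and the *Junb* and *Ier2* pair is also the pair of chromosome 8.

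**Figure D3:**
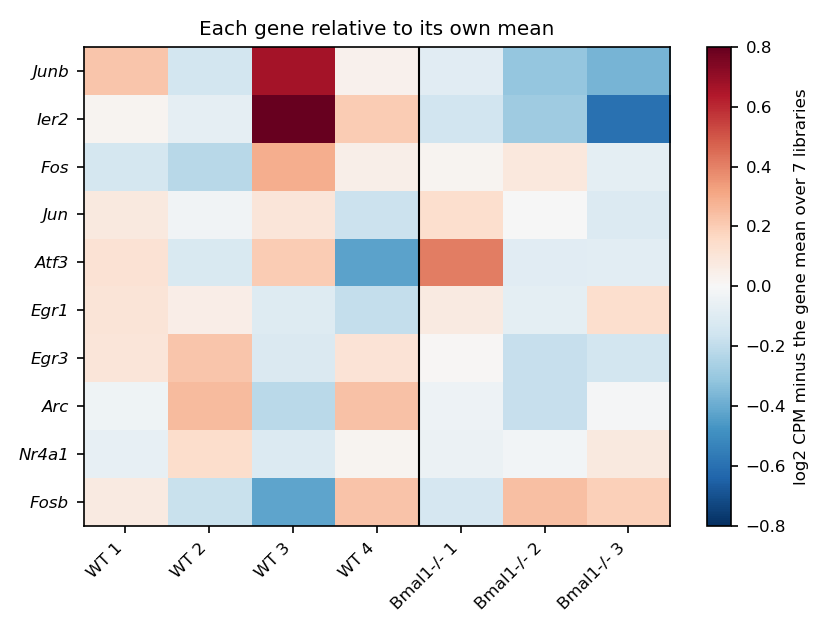
Log2 CPM of each member (rows) minus its own mean over the 7 libraries (columns; colour scale from -0.8 to 0.8 log2 units, line between WT and Bmal1-/-). *Junb* and *Ier2* are both highest in WT replicate 3, where *Fosb* is lowest, and *Atf3* is highest in Bmal1-/- replicate 1.

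The 8 genes most like the mean of the standardised members were *Nudt2*, *Hist1h1d*, *Hus1*, *Chl1*, *Rexo4*, *Hras*, *Intu* and *Trappc5*, with r from 0.91 to 0.97 over the 7 libraries. The mean stands for no shared pattern, since the members' own r with it ran from -0.75 for *Fosb* to 0.64 for *Egr3*. With each library left out, 0 to 5 of the 8 were still among the top 8, and without WT replicate 3 none was.

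The list of EGR and NR4A relatives held 6 genes, *Egr2*, *Egr4*, *Nr4a2*, *Nr4a3* and also *Nab1* and *Nab2*, of neither family. In it *Egr2* fell and no other passed, where 1.57% of all genes did. *Egr2*, known for driving peripheral myelination and for its induction in immune cells, was at 2.8, 3.53 and 2.66 CPM in libraries with the Bmal1-/- label and at 6.32, 6.71, 6.69 and 5.75 CPM in WT. The groups were far apart, with every Bmal1-/- value below every WT value. The log2 fold change was -1.09 (SE 0.14, adjusted p = 0.0155, edgeR). The call was lost without Bmal1-/- replicate 1 or 3 or WT replicate 1, while the log2 fold change was -1.22 to -1.01 over the fits that each left out a library. Of 4 Schwann cell markers, *Prx*, which encodes a protein of myelinating Schwann cells, had 1.62 to 3.30 CPM in libraries with the Bmal1-/- label and 5.22 to 37.7 in WT. *Ncmap* had 1.04 to 1.67 and 1.87 to 7.09 CPM. *Mal* overlapped (641 to 711 and 562 to 692 CPM), and *Pmp2* was near 0 in all libraries and was not tested. So 2 of the 3 markers tested were lower without overlap, beside 13.5% of all genes. Within WT, *Egr2* stayed between 5.75 and 6.71 CPM while *Prx* ranged from 5.22 to 37.7. The summed level of the 4 markers, nearly all of it *Mal*, which oligodendrocytes also make, was 644 to 714 CPM under the Bmal1-/- label and 575 to 699 in WT. The part of Schwann cell RNA in the difference between genotypes was not tested.

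**Figure D4:**
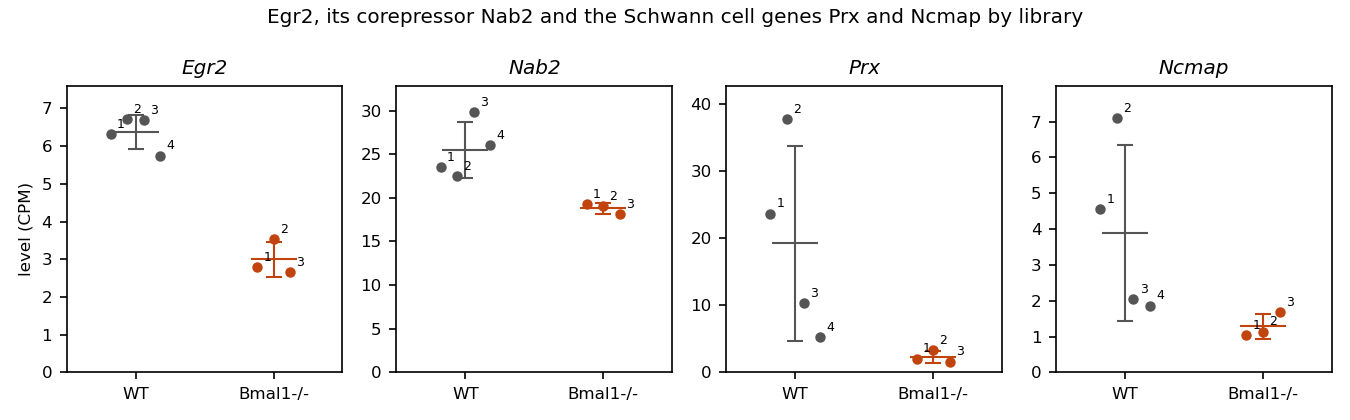
Level in CPM (y axis, from 0) of *Egr2*, *Nab2* and the Schwann cell genes *Prx* and *Ncmap* in the libraries labelled WT (4, grey) and Bmal1-/- (3, orange), numbered by replicate, with mean ± SD. *Egr2* is near 6.37 in all WT libraries and near 3.00 in all Bmal1-/- libraries, while *Prx* spreads from 5.22 to 37.7 within WT.

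*Nab2*, whose protein represses EGR factors and which EGR factors induce, was below every WT library wherever the label was Bmal1-/- (18.8 ± 0.61 CPM, SD, n = 3, against 25.5 ± 3.26, SD, n = 4). With -0.44 as its log2 fold change it did not pass (adjusted p = 0.0995, edgeR), and 3 genes on the opposite strand overlap it. DESeq2 called it, and so did edgeR without WT replicate 3. *Nr4a2* had a log2 fold change of -0.48 (adjusted p = 0.215) and *Egr4* of 0.66 (adjusted p = 0.316) in edgeR. *Egr4* was at 0.483 ± 0.045 CPM (SD, n = 3) in libraries with the Bmal1-/- label and at 0.304 ± 0.138 (SD, n = 4) in WT. The median log2 fold change of the 6 genes was -0.28.

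Of 14 relatives of the AP-1 members, namely other FOS, JUN, MAF, BATF and ATF family genes, none passed. Estimates were below 0 for 10, with a median log2 fold change of -0.16. The 3 largest differences were those of the BATF genes, whose products pair with JUN proteins in immune cells. *Batf3* had a log2 fold change of -0.77 (adjusted p = 0.148), *Batf* of -0.75 (adjusted p = 0.299) and *Batf2* of -0.63 (adjusted p = 0.316) in edgeR. *Batf3* was at 0.798 ± 0.239 CPM (SD, n = 3) against 1.37 ± 0.09 (SD, n = 4), and *Batf2* was scarcer still. *Batf* was at -0.34 without WT replicate 3 and *Batf2* at -0.29 without Bmal1-/- replicate 3. Without WT replicate 3 the median of the 14 was -0.068, and *Mafk*, a small MAF protein, passed as higher.

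The other immediate early genes, 41 in the list, had no call in edgeR, with 10 lower and 5 higher at an unadjusted p under 0.05, where 20.9% of all genes were past that limit. Estimates were below 0 for 31, with a median log2 fold change of -0.26. Without overlap between genotypes 11 were lower (26.8%) and 5 were higher (12.2%), where 13.5% and 13.4% of all genes were. *Ptgs2*, the inducible prostaglandin synthase, had the largest difference, with 6.38, 5.06 and 4.92 CPM in libraries with the Bmal1-/- label against 8.95, 10, 16.6 and 12.3 in WT. Its log2 fold change was -1.14 (SE 0.23, adjusted p = 0.0655, edgeR). *Dusp5*, a phosphatase that switches off ERK, had 6.49 ± 0.67 CPM (SD, n = 3) against 12.3 ± 3.04 (SD, n = 4). *Klf10*, induced early by TGF-beta, had 16.3 ± 1.72 (SD, n = 3) against 27.9 ± 5.81 CPM (SD, n = 4). Their log2 fold changes were -0.92 (adjusted p = 0.0738) and -0.78 (adjusted p = 0.0746) in edgeR.

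The calls in this list changed with the test and with the libraries kept. DESeq2 called 5 of the 41 as lower and 5 as higher, and 9.13% of all genes. Without WT replicate 3, edgeR called 4 as lower and 3 as higher, where 4.66% of all genes were called. *Ptgs2*, *Dusp5*, *Klf10* and *Ier3* were lower and *Rgs2* and *Sgk1* higher in both, and were named after their values were seen. Of the 41, 2 were called without Bmal1-/- replicate 2. The median of the list was -0.12 without WT replicate 3. *Sgk1*, a glucocorticoid-induced kinase, was at 294 ± 55.4 CPM (SD, n = 3) against 175 ± 16.6 (SD, n = 4), with an adjusted p of 0.0519 in edgeR with all libraries. Summed endothelial markers ran from 380 to 439 CPM under the Bmal1-/- label and from 444 to 729 in WT, highest in WT replicate 3, and their part in this list was not tested.

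**Figure D5:**
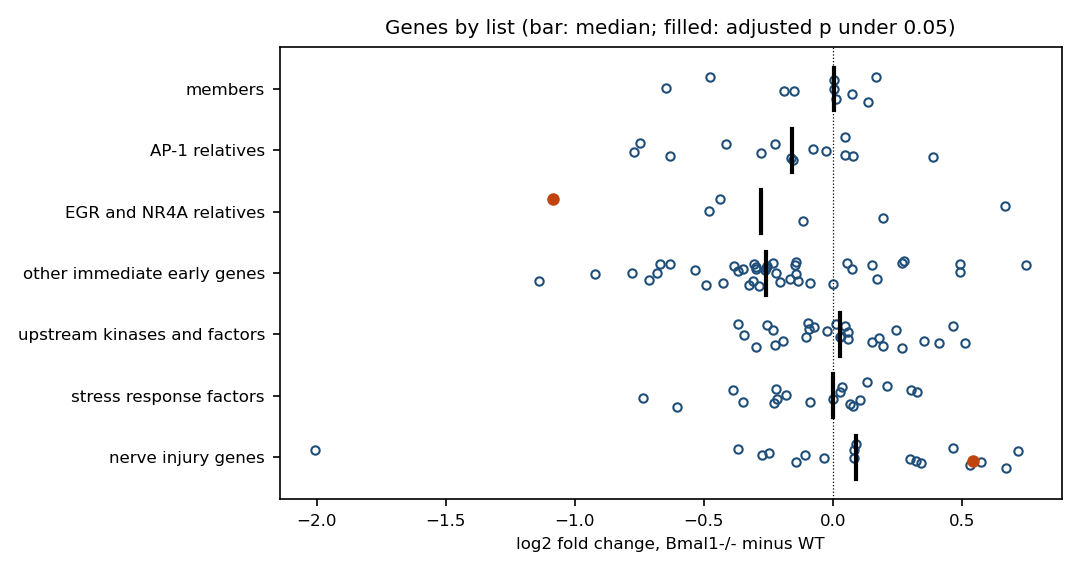
Log2 fold change (x axis, Bmal1-/- minus WT) of every gene in the members and in the 6 lists around them; each point is 1 gene, the bar is the median of its list, and filled points have an adjusted p under 0.05. *Egr2* (-1.09) and *Npy* (0.54) are the filled points, and the median of the other immediate early genes is at -0.26.

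Upstream of the members, 27 genes of SRF, its cofactors, the CREB family and the ERK, JNK and p38 kinases had no call. The median log2 fold change was 0.026, with 12 below 0 and 15 above. Without overlap between genotypes 4 were lower and 4 higher (14.8% each), near the 13.5% and 13.4% of all genes. *Mapk10* (0.51, adjusted p = 0.284), *Mapk9* (0.46, adjusted p = 0.230) and *Map2k4* (0.41, adjusted p = 0.222), which encode JNK kinases and a kinase that activates them, had the largest log2 fold changes in edgeR. Each of these 3 was higher in every Bmal1-/- library than in every WT library and lowest in WT replicate 3, as the summed neuron markers were, and the part of neuronal RNA was not tested. DESeq2 called *Srf* lower and *Mapk14* higher.

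None of 19 genes of the stress response around *Atf3* passed, with a median log2 fold change of -0.0017. *Atf4*, which induces *Atf3* under stress, was at 136 ± 9.25 (SD, n = 3) and 158 ± 28.5 CPM (SD, n = 4), named after its value was seen. *Trib3* (-0.74, adjusted p = 0.231), *Cebpb* (-0.60, adjusted p = 0.215) and *Atf5* (-0.39, adjusted p = 0.231) had the largest log2 fold changes in edgeR. All 3 were highest in WT replicate 3, and without it their log2 fold changes were -0.47, -0.35 and -0.24.

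Of 19 genes known from injured nerve, *Npy* rose and no other passed. *Npy*, a neuropeptide that injured sensory neurons make, had 25.4, 20.6 and 22.6 CPM in libraries with the Bmal1-/- label against 17.0, 15.5, 15.7 and 14.4 in WT. The genotypes were apart, with a log2 fold change of 0.54 (SE 0.10, adjusted p = 0.0448, edgeR). The call held in 1 of the 7 fits that left out a library, the one without WT replicate 3, and its log2 fold change in these fits was 0.46 to 0.61. *Sprr1a* (0.71, adjusted p = 0.157) and *Vip* (0.67, adjusted p = 0.111), also induced by nerve injury, were higher in every Bmal1-/- library than in every WT library. So was *Gap43* (0.47, adjusted p = 0.0546, edgeR), named after its value was seen. Both DESeq2 and edgeR without WT replicate 3 called it along with *Npy*. In all, 6 of the 19 were higher and none was lower without overlap, beside 13.4% and 13.5% of all genes. The summed neuron markers given with *Arc* did not overlap between the genotypes either, and their part in these values was not tested. *Ngfr* had the largest log2 fold change (-2.01, adjusted p = 0.268, edgeR), with 107 and 56.8 CPM in WT replicates 1 and 2 and 6.50 to 12.3 CPM in the other 5 libraries. The same WT libraries held the most *Prx*, at 23.7 and 37.7 CPM, against 1.62 to 10.4 CPM in the other 5. The part of Schwann cell RNA in the *Ngfr* values was not tested.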

How the data were processed

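RNA of injured cord was sequenced from 7 mice, each giving 1 library. After FastQC 0.10.1, the authors aligned the stranded poly-A reads to GRCm38 (Tophat2) and used HTSeq 0.10.0 to count reads by gene (versions as in the submitters' processing notes). What they deposited is whole-number counts, not normalized. The annotation release and strand setting of the counting are not given in the sources used here, so genes that overlap on opposite strands are uncertain.

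Genes were filtered with edgeR's filterByExpr, normalized with TMM and tested for genotype with the quasi-likelihood test (edgeR 4.0.16, limma 3.58.1, R 4.3.3), with Benjamini-Hochberg adjustment over 15743 genes and a threshold of 0.05. The study used DESeq2, which is an alternative here (version 1.42.0). Standard errors were worked back from the log2 fold change and the F statistic of the same test. Intervals of 95% were built from them with a t distribution. P-values set the genotype difference against the spread between these mice. Log2 CPM for correlations used a prior count of 1. Lengths, positions and overlaps came from GENCODE M21, and 21939 of 21965 gene IDs had a symbol. Promoters came from RefSeq. Plots used matplotlib 3.10.9 and python 3.11.15. The fit was tested on simulated data. The members and lists were chosen with earlier results of these data known.

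The genes named are the members, *Arntl*, in each list the called genes and the 3 largest differences, and the 8 genes most like the members' mean, with others marked as named after their values were seen. Alternatives were DESeq2, limma-voom, RLE and upper-quartile normalization, other filters, sex as a covariate, a replicate block and each library left out. Leaving out WT replicate 3 for the pairs of members was chosen after seeing the data. A further Schwann cell marker of that list is not reported here.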

Additional observations from a re-analysis of the deposited data

Results flagged for a closer look

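In WT, *Atf5* was at 109 CPM in replicate 3 and at 73.5 to 78.5 CPM in the other 3 libraries, a gap of 0.858 of the group's whole range. *Sprr1a* was at 63.8 CPM in WT replicate 4 and at 107 to 114 CPM in the others, a gap of 0.85 of the range. Both gaps are past Dixon's 95% critical value for 4 samples. Such gaps were looked for in 29 genes, and chance alone gives about 1 in 20 groups. None of the 10 immediate early and injury genes had one. WT replicate 3 was also the library that lay apart in its macrophage and neuron markers.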

How the results depend on the processing

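No member passed in any of the 15 alternatives. The signs of *Fos*, *Jun* and *Nr4a1*, whose log2 fold changes were near 0, were not fixed. With upper-quartile normalization they were -0.029, -0.016 and -0.022, and *Jun* was at -0.0060 with sex as a covariate. Leaving out each library gave -0.072 to 0.11 for *Fos*, -0.051 to 0.066 for *Jun*, -0.036 to 0.051 for *Nr4a1* and -0.049 to 0.23 for *Atf3*. *Junb* and *Ier2* were below 0 in all 15, with adjusted p from 0.140 to 0.566 and from 0.108 to 0.564. The cause of these moves was not tested.

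DESeq2 called 1495 genes in all, 2 EGR and NR4A relatives, 10 other immediate early genes, 2 upstream genes, 1 stress response gene and 4 nerve injury genes. For the nerve injury genes the count was 2 with RLE size factors and 0 with limma-voom, upper-quartile normalization or sex as a covariate. With each library left out, the counts were 57 to 730 for all genes, 0 to 1 for the AP-1 relatives, 0 to 2 for the EGR and NR4A relatives, 0 to 7 for the other immediate early genes and 0 to 2 for the nerve injury genes. Over all genes, 247 were called with every library, against 57 and 73 without Bmal1-/- replicates 1 and 3 and 81, 140, 730 and 125 without WT replicates 1 to 4.

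With replicate number as a block no gene passed, so the count was 0 for all genes and every list, with 1590 genes and no member at an unadjusted p under 0.05. *Jun* was then at -0.042. The labels do not say that the numbers pair the mice. Same-numbered libraries had correlations of -0.17, 0.19 and -0.27 in their deviations from the group means, too few to exclude a pairing. Females are numbered before males in both groups, so the block also takes up sex. It leaves little to estimate the spread between mice from, which limits what a count of 0 can show. Spread between mice, and for *Fosb*, *Egr3* and *Egr4* also the low counts, limits these comparisons.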
